A study of Homo sapiens with 15 samples.

Results

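The 10 symbols of the bone morphogenetic protein (BMP) pathway upstream of the ID genes were taken from the 25737 entries of the count table, each by its exact symbol. These were the ligands BMP2 and BMP4, the receptors BMPR1A and BMPR2, the receptor-activated SMAD1 and SMAD5, the inhibitory SMAD6 and SMAD7, the secreted antagonist GREM1 and the pseudoreceptor BAMBI. All 10 genes were in the table, and 9 of them were among the 12870 genes tested. The libraries came from U87MG, an established human glioblastoma line grown in serum, 24 h after lentivirus was added. The control virus carried GFP, and the others were made to overexpress ID1, ID2, ID3 or ID4, with 3 libraries in each of the 5 groups. All groups thus shared the cell line, the medium and a lentiviral transduction, and nothing in the labels says whether the 3 libraries of a group came from separate cultures, so p-values measure the spread between these libraries, which may be technical. The QuantSeq kit reads the 3′ end of polyadenylated transcripts, and levels are given in CPM, the count of a gene per 1000000 counts of its library. Libraries held 11089044 to 15148979 counts, at which a floor of 3 counts equals 0.198 to 0.271 CPM, covering counting error only.

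BMP ligands bind a complex of type I and type II receptor kinases, among them BMPR1A and BMPR2, which phosphorylate SMAD1, SMAD5 and SMAD9. These join SMAD4, enter the nucleus and activate genes such as ID1, ID2 and ID3, whose products are helix-loop-helix proteins that block the DNA binding of E proteins. The pathway is restrained at each level: GREM1 binds the ligands outside the cell, BAMBI resembles a type I receptor without a kinase domain, and SMAD6 and SMAD7 are inhibitory SMADs that BMP and TGF-β signals themselves induce. In glioblastoma, BMPs are known for driving tumor stem cells towards astrocytic differentiation, and GREM1 for opposing this.

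The transduced genes were checked first. ID4 mRNA was counted 2479 to 3110 times with the ID4 label and 0 to 2 times with GFP. ID3 mRNA was 1.42-fold higher than in GFP in the ID3-labelled libraries, but it was also 1.30-fold higher with the ID2 label. Its rise was thus not particular to its own label. ID1 and ID2 mRNA, however, were lower than in GFP in the libraries that carry their names, at 0.726 and 0.524 of the GFP level. Groups are therefore named by their labels. The table does not separate transcripts of the virus from those of the endogenous gene, and the sources used here do not say whether the 3′ tags count the viral transcripts, so a low level with a gene's own label does not show that its total mRNA was low. Of the markers for the line, VIM (3481 to 4765 CPM) and CD44 (493 to 616 CPM) were high in every library, while the glial markers GFAP, S100B and SOX2 had 0 to 4 counts. NES, also a marker for the line, had 223 to 394 counts, and OLIG2 had 2 to 11. Markers of endothelium and leukocytes were near 0, at 0 to 2 counts for CDH5, 1 to 8 for PECAM1 and 0 to 8 for PTPRC. Of the neuron markers, RBFOX3 had 0 to 1 counts, but SYT1 had 21 to 51 counts per library. In such bulk libraries, fewer cells with a transcript and less of it per cell cannot be told apart.

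Of the 9 tested genes, 3, 4, 4 and 3 passed the test against GFP for ID1 to ID4 (edgeR, adjusted p under 0.05), beside 22.1%, 35.1%, 28.6% and 21.6% of all tested genes. The higher ones numbered 2, 3, 3 and 2, beside 12.4%, 18.5%, 15.1% and 12.1% of all tested genes, and the lower one was BAMBI in each, beside 9.73%, 16.7%, 13.5% and 9.51%. The 4 comparisons share the GFP libraries, so their calls are not independent. The share of all tested genes called in all 4 was not computed. The genes of the 9 that differed in all 4 ID groups were 3. SMAD6 and GREM1 mRNA were higher, and BAMBI mRNA was lower, but its ID1, ID3 and ID4 calls were lost by DESeq2, by limma and without GFP replicate 2 or 3, where SMAD6 and GREM1 alone differed in all 4. In addition, BMPR2 mRNA was higher with the ID2 label and SMAD1 mRNA higher with the ID3 label. The bases before the transcription start of the first 3 genes are shown because these genes are the ones called in all 4 groups and because 2 SMAD-binding motifs are known: GTCTAGAC, the palindromic SMAD box, and GGCGCC, the GC-rich element of BMP-activated SMADs. Both motifs read the same on either strand, and the occurrences do not overlap. Each line gives 250 bases on the plus strand, taken from the RefSeq start table and placed on GRCh37 by exact match, with motifs in capitals. SMAD6 lies at chr15:66994324-66994573, GREM1 at chr15:33009955-33010204 for the first of its 2 listed starts, and BAMBI at chr10:28966200-28966449. The RefSeq start of BAMBI lies downstream of the start in the GENCODE annotation used for gene positions.

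SMAD6: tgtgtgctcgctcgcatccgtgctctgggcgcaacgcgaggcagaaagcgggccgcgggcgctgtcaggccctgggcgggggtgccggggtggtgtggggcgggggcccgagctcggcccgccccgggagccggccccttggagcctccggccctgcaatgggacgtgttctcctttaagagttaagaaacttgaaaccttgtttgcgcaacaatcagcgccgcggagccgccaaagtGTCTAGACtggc
GREM1: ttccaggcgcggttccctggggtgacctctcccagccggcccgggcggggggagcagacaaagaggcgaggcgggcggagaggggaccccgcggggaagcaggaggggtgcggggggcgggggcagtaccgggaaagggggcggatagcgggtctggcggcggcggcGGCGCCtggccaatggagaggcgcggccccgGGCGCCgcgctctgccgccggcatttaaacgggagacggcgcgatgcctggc
BAMBI: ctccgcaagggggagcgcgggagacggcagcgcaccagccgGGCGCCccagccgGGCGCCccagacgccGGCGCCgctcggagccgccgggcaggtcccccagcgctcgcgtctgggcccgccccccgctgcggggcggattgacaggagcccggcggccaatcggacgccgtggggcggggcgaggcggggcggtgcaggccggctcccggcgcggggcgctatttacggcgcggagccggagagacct

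The SMAD box stood 12 bases before the start of SMAD6, and 0.178% of 34788 distinct windows of this length held it. GGCGCC occurred 2 times before the first start of GREM1, 0 times before its second and 3 times before BAMBI, and 16.4% of all windows held at least 1. Of the 10 genes, 9 were matched in the start table, with 18 windows between them. SMAD6 was the only 1 of these 9 with the SMAD box, and 5 genes had GGCGCC in at least 1 window (BMP4, BMPR2, SMAD1, GREM1 and BAMBI). Counted by window, as in the 16.4%, GGCGCC was in 6 of the 18. The bases G and C made up 68.0%, 76.8% and 81.2% of the windows shown for SMAD6, GREM1 and BAMBI. The single window listed for each of ID1, ID2 and ID3 held neither. These matches describe letters in a window and not bound sites.

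**Figure D1:**
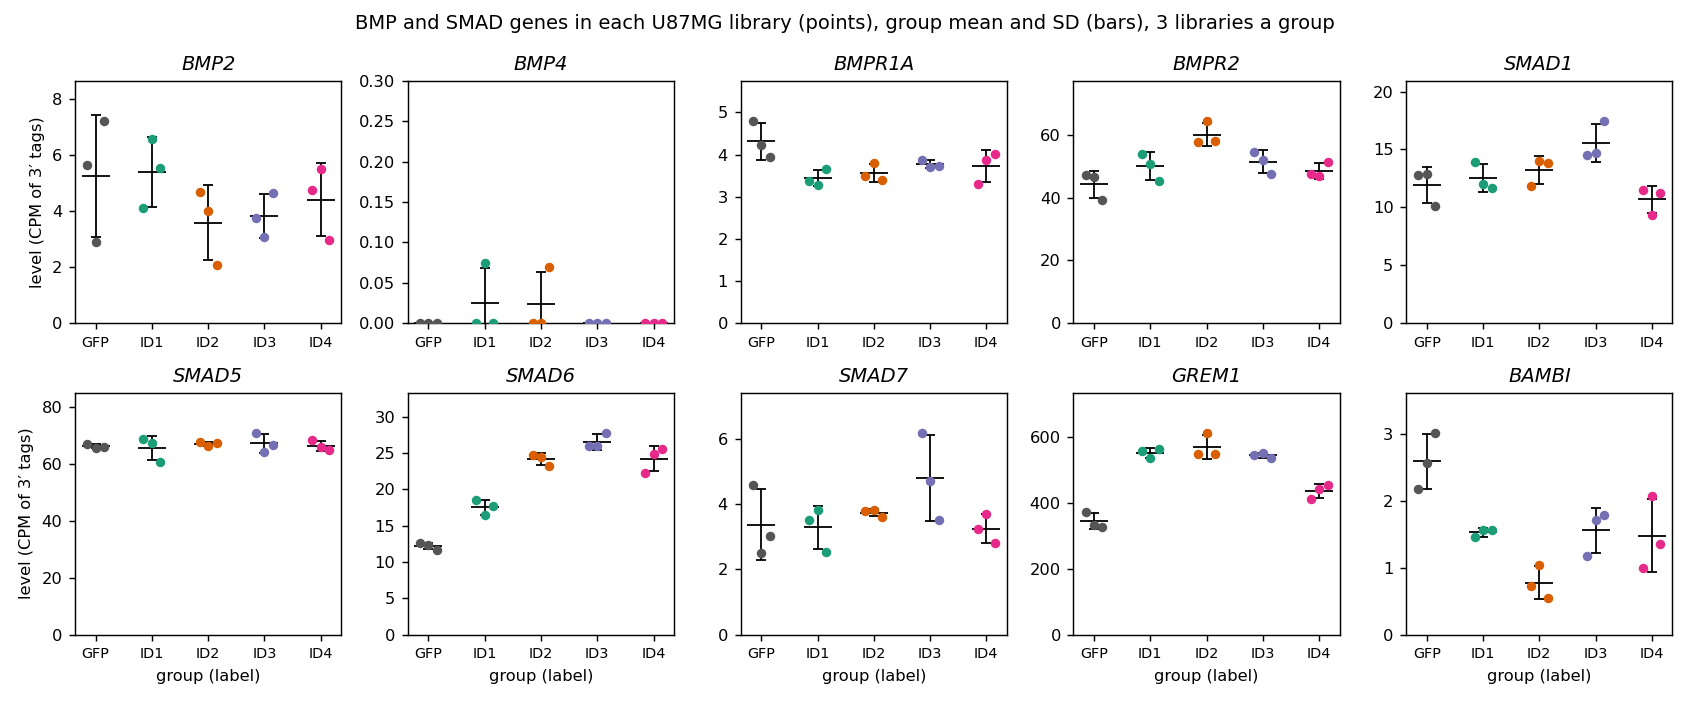
Level of each of the 10 genes in CPM (y axis, from 0) in every library (points) of the 5 groups (x axis), with the group mean and SD over 3 libraries as bars. SMAD6 rises from 12.2 CPM in GFP to 26.5 CPM with the ID3 label, GREM1 is higher and BAMBI lower in all 4 ID groups, and SMAD5 stays between 60.8 and 70.8 CPM.

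The inhibitory SMAD6 gene, on chromosome 15 of GRCh37 from 66994574 to 67075187, rose in all 4 ID groups. Its level was 12.6, 12.3 and 11.7 CPM in the GFP libraries and 18.5, 16.4 and 17.7 CPM in the ID1-labelled ones. It was 24.8, 24.5 and 23.2 CPM with the ID2 label, 25.9, 25.9 and 27.7 CPM with ID3, and 22.2, 24.9 and 25.5 CPM with ID4. Every ID library lay above every GFP library, and every ID1-labelled library lay below those of the other ID groups. Group means were 1.43, 1.98, 2.17 and 1.98 times that of GFP for ID1 to ID4. In the edgeR quasi-likelihood fit, the log2 fold changes were 0.51, 1.00, 1.10 and 0.98 with standard errors of 0.09 each, and the Benjamini-Hochberg adjusted p-values were 0.000267, 8.89e-09, 3.2e-09 and 3.61e-08. The ID1-labelled level was also below ID2, ID3 and ID4 in direct contrasts, by log2 values of -0.49, -0.59 and -0.48 (edgeR adjusted p = 0.000224, 7.62e-05 and 0.00101). The levels with the ID2, ID3 and ID4 labels did not pass the test against each other.

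SMAD7, the other inhibitory SMAD, did not pass in any group. It had 65, 30 and 36 counts in the GFP libraries, 53, 51 and 34 with ID1, 52, 55 and 52 with ID2, 89, 66 and 47 with ID3, and 42, 41 and 37 with ID4. The groups overlapped throughout. The largest difference from GFP was 0.48 on the log2 scale for ID3 (standard error 0.23, edgeR adjusted p = 0.123), which became 0.78 without GFP replicate 1 (adjusted p = 0.0274) and 0.65 without ID3 replicate 3 (adjusted p = 0.0437). SMAD7 had 30 to 89 counts per library.

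GREM1, the BMP antagonist on chromosome 15 from 33010205 to 33037307, was measured at 3923 or more counts per library. Its level was 374, 333 and 328 CPM in GFP, 558, 536 and 564 CPM with ID1, 550, 614 and 550 CPM with ID2, 548, 552 and 537 CPM with ID3, and 414, 444 and 456 CPM with ID4. No ID library reached down to the GFP range, and the ID4-labelled libraries lay between GFP and the other 3 groups. The log2 fold changes for ID1 to ID4 were 0.66, 0.74, 0.64 and 0.34 (standard errors 0.05, edgeR adjusted p = 5e-09, 4.25e-10, 7.76e-09 and 7.35e-05). ID4 was lower than ID1, ID2 and ID3 in direct contrasts, with GREM1 differences of 0.32, 0.40 and 0.30 (log2, adjusted p = 0.000526, 1.37e-05 and 0.00089). ID1, ID2 and ID3 did not differ from each other by this test.

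SMAD6 and GREM1 share chromosome 15, on which many genes were higher in all ID groups. The median log2 fold change of the 387 other tested genes there was 0.34, 0.25, 0.32 and 0.37 for ID1 to ID4, the highest of the chromosomes with at least 50 tested genes in each comparison. The median over all tested genes lay near 0 in each. SMAD6 exceeded the chromosome median by 0.16, 0.74, 0.77 and 0.61, and of its 40 nearest tested genes 3, 0, 1 and 1 had a larger log2 fold change. Among these neighbours was SMAD3, a TGF-β-activated SMAD, whose log2 fold changes were -0.01, -0.34, -0.15 and 0.01. GREM1 exceeded the chromosome median by 0.32, 0.49 and 0.32 for ID1 to ID3. With the ID4 label, however, its change minus the chromosome median was -0.03, and 23 of 40 neighbours changed more. The part of the chromosome-wide shift in the SMAD6 and GREM1 results was not tested.

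**Figure D2:**
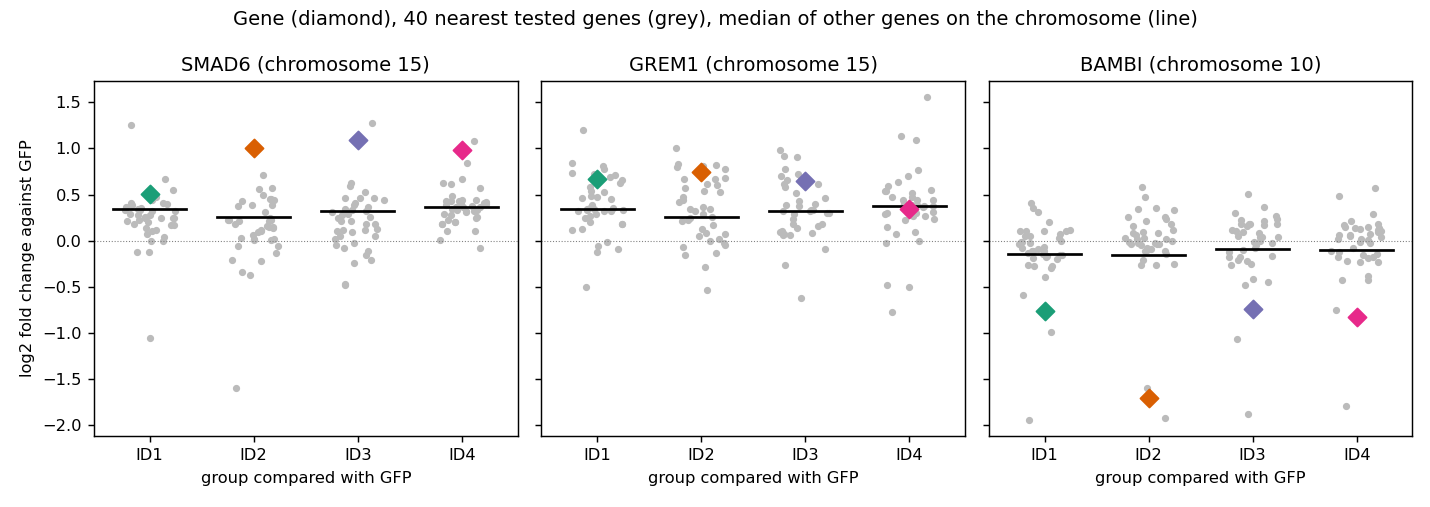
Log2 fold change against GFP (y axis) of SMAD6, GREM1 and BAMBI (diamonds), of the 40 nearest tested genes (grey points) and the median of the other tested genes on the chromosome (line), for each ID group (x axis). SMAD6 stands above nearly all neighbours for ID2, ID3 and ID4, GREM1 falls on the chromosome 15 line for ID4, and BAMBI lies below nearly all of its neighbours.

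BAMBI, on chromosome 10 from 28966439 to 28971861, changed in the opposite direction at low counts. It had 31, 31 and 36 counts in the GFP libraries, 22, 21 and 21 with ID1, 10, 15 and 8 with ID2, 17, 24 and 24 with ID3, and 13, 23 and 18 with ID4. In CPM, no ID library reached the lowest GFP library, which stood at 2.18. The decrease was largest with the ID2 label, from 2.59 ± 0.415 to 0.774 ± 0.246 CPM (SD, n = 3 each), where BAMBI fell by 1.71 on the log2 scale (standard error 0.31, edgeR adjusted p = 0.000142). For ID1, ID3 and ID4 the log2 fold changes were -0.76, -0.74 and -0.82, with edgeR adjusted p-values of 0.0464, 0.0434 and 0.0393, close to the threshold. DESeq2 gave adjusted p = 0.102, 0.0963 and 0.0873 for these 3, and limma on the deposited log2 values gave 0.0865, 0.0738 and 0.0523. Without a filter on low counts the ID1 and ID3 calls were lost (adjusted p = 0.0607 and 0.0613), and with library totals alone that of ID1 (0.0508). All 3 calls were lost without GFP replicate 2 or 3. They were also lost without ID1 replicate 1, 2 or 3, without ID3 replicate 1 or 2, and without ID4 replicate 1 or 3, respectively, with adjusted p-values up to 0.159, 0.176 and 0.19. BAMBI was higher with ID1 than with ID2 by 0.94 (log2, edgeR adjusted p = 0.0499), a call lost by DESeq2 (adjusted p = 0.0896), with filterByExpr (0.0539), without a filter on low counts (0.0647) and with only the compared groups fitted (0.0695). It was also lost without any 1 of the ID1 libraries, ID2 replicate 1 or ID2 replicate 3 (up to 0.172). The differences of ID2 from ID3 (-0.96, adjusted p = 0.0513) and from ID4 (-0.88, adjusted p = 0.0745) did not pass, but passed by limma (adjusted p = 0.0341 and 0.0486), and that from ID3 also with library totals alone (0.0414). The median change of other tested genes on chromosome 10 was -0.14, -0.16, -0.09 and -0.10, and 38, 39, 38 and 39 of the 40 genes nearest to BAMBI had higher log2 fold changes than BAMBI.

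Of the ligands, BMP4 was not detected above the floor. A count of 1 was found in ID1-labelled replicate 2 and ID2-labelled replicate 3, and 0 in every other library, which allows up to 0.271 CPM in the shallowest. BMP2 had 80, 35 and 86 counts in GFP, and 62, 88 and 74 with ID1. It had 64, 58 and 30 with ID2, 54, 43 and 62 with ID3, and 62, 61 and 39 with ID4. The spread within groups was as wide as that between them, and the log2 fold changes of 0.02, -0.54, -0.48 and -0.27 had standard errors of 0.29 to 0.30 (edgeR adjusted p = 0.979, 0.179, 0.245 and 0.59). For ID2 the adjusted p was 0.036 without GFP replicate 2 and 0.033 without a filter on low counts, so BMP2 depends on 1 control library and on the genes tested.

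Of the receptors, BMPR2, the type II receptor on chromosome 2, was at 47.1, 46.6 and 39.3 CPM in GFP and at 57.9, 64.4 and 58.0 CPM with the ID2 label. It was at 54.1, 50.8 and 45.4 CPM with ID1, 54.8, 52.1 and 47.7 CPM with ID3, and 47.5, 46.9 and 51.5 CPM with ID4. The ID2-labelled libraries lay above all others. BMPR2 mRNA rose by a log2 value of 0.46 with this label (standard error 0.08, edgeR adjusted p = 0.000123), and it was higher than with ID1, ID3 and ID4 by 0.29, 0.26 and 0.32 (adjusted p = 0.0115, 0.0294 and 0.00636). The difference from ID1 was lost without ID1 replicate 3 or ID2 replicate 2 (adjusted p = 0.0872 and 0.0558), and that from ID3 without ID2 replicate 2, ID3 replicate 2 or ID3 replicate 3 (adjusted p = 0.125, 0.06 and 0.134) and also with library totals alone (0.0685) and with only the compared groups fitted (0.0637). The values of 0.16, 0.20 and 0.13 against GFP for ID1, ID3 and ID4 did not pass (edgeR adjusted p = 0.178, 0.0768 and 0.289), and that for ID3 passed without ID3 replicate 3 (adjusted p = 0.0478). BMPR1A, a type I receptor on chromosome 10 with 43 to 68 counts, was at 4.32 ± 0.435 CPM in GFP and at 3.44 ± 0.193, 3.57 ± 0.217, 3.77 ± 0.0953 and 3.73 ± 0.379 CPM with ID1 to ID4 (SD, n = 3 each). Its log2 fold changes were -0.35, -0.26, -0.22 and -0.22 (standard errors 0.16), the libraries of ID1, ID2 and ID3 lay below those of GFP, and 0 of 4 passed the edgeR test at an adjusted p under 0.05 (edgeR adjusted p = 0.139 to 0.387), with 1 at an unadjusted p under 0.05. By DESeq2 and by limma, 0 of 4 passed as well.

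Of the receptor-activated SMADs, SMAD5 had the steadiest level. Its means were 66.2 ± 0.753 CPM in GFP and 65.6 ± 4.20, 67.0 ± 0.727, 67.2 ± 3.37 and 66.3 ± 1.70 CPM with ID1 to ID4 (SD, n = 3 each). The log2 fold changes ranged from -0.03 to 0.03 with standard errors of 0.06, and 2 standard errors to either side of the 4 values reached from -0.15 to 0.15. SMAD1 was at 12.8, 12.8 and 10.1 CPM in GFP and at 14.5, 14.7 and 17.4 CPM with the ID3 label. In the other groups it was at 13.9, 12.03 and 11.6 CPM (ID1), 11.8, 13.99 and 13.8 CPM (ID2) and 11.5, 9.38 and 11.3 CPM (ID4). The ID3-labelled libraries lay above all others. SMAD1 mRNA rose by a log2 value of 0.36 with this label (standard error 0.12, edgeR adjusted p = 0.0346), a call lost without GFP replicate 3 (adjusted p = 0.172), ID3 replicate 2 (0.0503) or ID3 replicate 3 (0.161). Between ID3 and ID4 the SMAD1 difference was 0.51 (adjusted p = 0.011), lost without ID3 replicate 3 or ID4 replicate 2 (adjusted p = 0.0501 and 0.0646). The other contrasts of SMAD1, with GFP or between ID groups, did not pass. For BMP2, BMPR1A, SMAD5 and SMAD7, 0 contrasts between ID groups passed by edgeR at an adjusted p under 0.05, and 2 had an unadjusted p under 0.05, both for SMAD7. Over all tested genes, 18.6%, 9.18% and 4.87% passed between ID1 and ID2, ID3 and ID4, 15% and 18.6% between ID2 and ID3 and ID4, and 11.3% between ID3 and ID4.

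**Figure D3:**
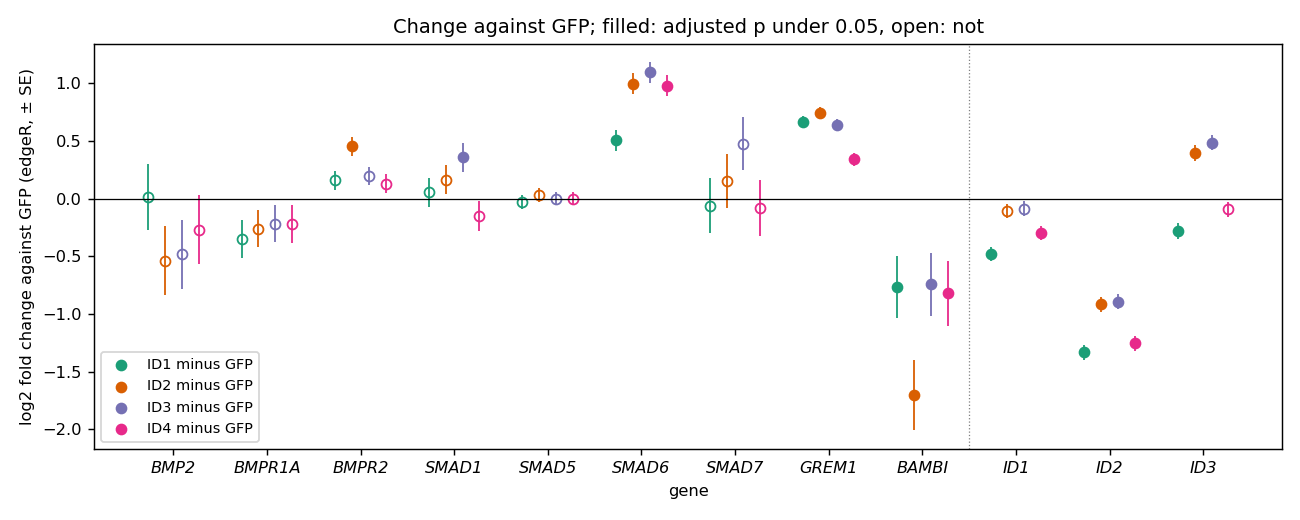
Log2 fold change against GFP (y axis, edgeR, ± standard error) of the 9 tested genes and of ID1, ID2 and ID3 (x axis), 1 point for each ID group, filled where the adjusted p is under 0.05. SMAD6 and GREM1 are filled and above 0 in all 4 groups, BAMBI and ID2 filled and below 0.

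The count of the 9 genes that passed for ID3 fell to 2 without GFP replicate 3 or ID3 replicate 2. The 4 comparisons share the same GFP libraries. The median absolute log2 fold change of the 9 genes was 0.16, 0.46, 0.48 and 0.22, against 0.16, 0.21, 0.18 and 0.16 over all tested genes. The 0.48 for ID3 is the value of SMAD7, which did not pass. BAMBI, SMAD7, BMPR1A and BMP2 had only 8 to 89 counts per library, at which noise widens absolute changes. The 9 genes were not compared with genes of similar counts.

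The ID genes, which are BMP targets, were read beside these levels. Under its own label each of them is the transduced gene, and its level may include viral transcripts. Such a value, and any contrast that holds it, does not read the endogenous target alone. ID1 mRNA (chromosome 20) had its highest mean in GFP, at 345, 337 and 350 CPM, and its lowest with the ID1 label, at 247, 249 and 254 CPM. It was 316 ± 32.9, 329 ± 9.81 and 281 ± 19.9 CPM (SD, n = 3 each) with ID2, ID3 and ID4. The log2 fold changes against GFP were -0.48, -0.11, -0.09 and -0.30 for ID1 to ID4 (edgeR adjusted p = 5.54e-06, 0.198, 0.329 and 0.00131). ID3 mRNA (chromosome 1) was ordered otherwise, with 313 ± 11.4 CPM under the ID3 label, 287 ± 27.8 under ID2, 221 ± 8.33 in GFP, 207 ± 20.1 under ID4 and 184 ± 6.49 under ID1 (SD, n = 3 each). Its log2 fold changes were -0.28, 0.40, 0.49 and -0.09 for ID1 to ID4 (edgeR adjusted p = 0.00426, 7.19e-05, 9.92e-06 and 0.369). Between the ID2 and ID3 labels, ID3 mRNA did not pass in any run (log2 -0.17 to -0.04, adjusted p = 0.109 to 0.787 over edgeR, limma and DESeq2). ID2 mRNA fell in all 4 groups, by 1.33, 0.92, 0.90 and 1.26 on the log2 scale. SMAD6 and ID3 were thus both higher with the ID2 and ID3 labels than with ID1, but SMAD6 was also raised where ID3 was not, with the ID1 and ID4 labels. GFP had the lowest mean SMAD6 and GREM1 levels and the highest mean ID1 and ID2 levels of the 5 groups. For ID1 mRNA the libraries overlapped. ID2-labelled replicate 2 (340.3 CPM) and ID3-labelled replicate 2 (339.9 CPM) lay above GFP replicate 2 (336.6 CPM). ID1 and ID3 mRNA were lower with the ID1 label than with ID2 (log2 -0.37 and -0.68, edgeR adjusted p = 0.000217 and 3.33e-07) and with ID3 (-0.39 and -0.77, adjusted p = 0.000307 and 9.81e-08), which are the contrasts in which SMAD6 was lower as well. Between ID1 and ID4, in which SMAD6 differed, ID1 and ID3 mRNA did not pass (-0.18 and -0.19, adjusted p = 0.111 and 0.135), though both passed when only these groups were fitted (adjusted p = 0.0128 and 0.0367), and ID1 also without a filter on low counts (0.0476).

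**Figure D4:**
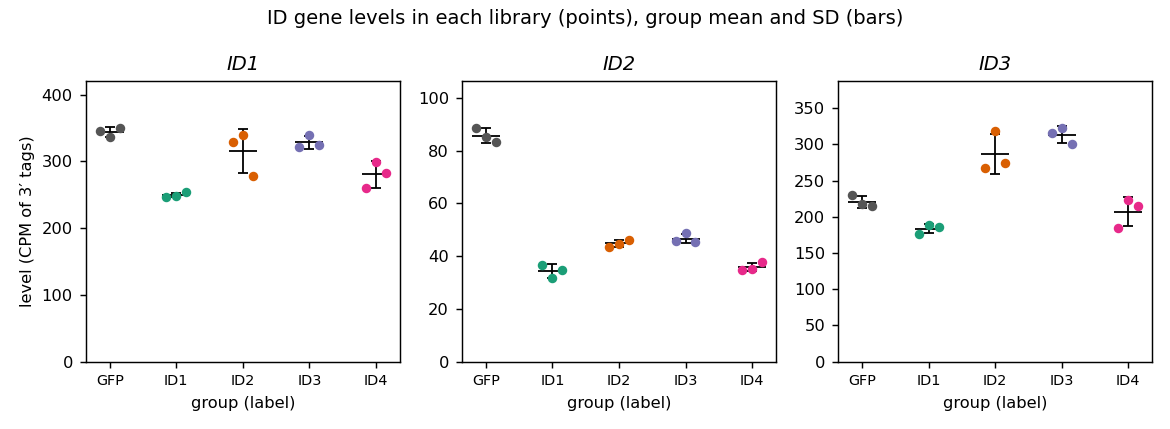
Level of ID1, ID2 and ID3 in CPM (y axis, from 0) in every library (points) of the 5 groups (x axis), with the group mean and SD over 3 libraries as bars. The means of ID1 and ID2 are highest in GFP, and ID3 is highest with the ID3 and ID2 labels.

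The genes most like each member over the 15 libraries were taken by Pearson's r of log2 CPM, a description in which libraries share 5 groups. For GREM1 these were TGFB2 (r = 0.98), its overlapping transcript TGFB2-OT1 (0.98) and TGM2 (0.97). For SMAD6 they were MOXD1 (0.97), KLHL3 (0.96) and RSRP1 (0.95), and for BAMBI SNHG6 (0.94), KIAA1644 (0.93) and UBA6 (0.92). Those for ID1 were P4HA1 (0.91), ANK3 (0.90) and TXNIP (0.85), and those for ID3 were CTSO (0.92), ZNF862 (0.90) and MAGED2 (0.88). For the members with smaller changes, r of the nearest gene was 0.94 for BMP2 (ATP13A3), 0.93 for BMPR2 (TGOLN2), 0.86 for SMAD7 (OXSR1), 0.85 for BMPR1A (CDC42), 0.84 for SMAD1 (WIZ) and 0.78 for SMAD5 (CCDC130).

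The rest of the pathway was read from 67 other genes of the BMP and TGF-β pathways, ID1 to ID4 included, of which 47 were tested. With the ID2 label 28 of these passed, of which 21 were higher. With each of the ID1, ID3 and ID4 labels 21 passed, of which 16, 18 and 16 were higher. The corresponding shares were 44.7%, 59.6%, 44.7% and 44.7%, against 22.1%, 35.1%, 28.6% and 21.6% of all tested genes. The median log2 fold change was 0.16, 0.26, 0.21 and 0.04, and that over all tested genes lay near 0. The higher genes with the ID2, ID3 and ID4 labels include ID4 mRNA, which had 5 to 7 counts with ID2 and 3 to 10 with ID3.

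Of the 7 tested antagonists, 4, 6, 6 and 4 were higher for ID1 to ID4, beside 12.4%, 18.5%, 15.1% and 12.1% of all tested genes. The others did not pass, and 0 were lower, beside 9.73%, 16.7%, 13.5% and 9.51% of all tested genes. BMPER, a secreted BMP-binding protein, rose from 2.14 ± 0.366 CPM in GFP to 6.83 ± 0.499, 10.3 ± 0.168, 6.70 ± 0.482 and 6.13 ± 1.37 CPM (SD, n = 3 each), with log2 fold changes of 1.65, 2.28, 1.62 and 1.52 (edgeR adjusted p at most 3.39e-06). FST, which encodes the activin-binding follistatin, rose from 17.6 ± 2.21 to between 29.9 ± 1.18 (ID3) and 39.9 ± 5.09 CPM (ID4).

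Among 9 tested ligands, 5, 6, 4 and 5 were higher, beside 12.4%, 18.5%, 15.1% and 12.1% of all tested genes. In each group 1 was lower, beside 9.73%, 16.7%, 13.5% and 9.51% of all tested genes. The lower one was GDF5, named after its values were seen (log2 -0.32, -0.58, -0.76 and -0.38). INHBA, the activin A subunit, rose from 15 to 24 counts in GFP to between 34 and 118 counts, with log2 fold changes of 1.84, 0.87, 2.32 and 1.75. Its ID2 call was lost without GFP replicate 1 (edgeR adjusted p = 0.055). TGFB2 was at 34.5 ± 1.29 CPM in GFP and at 71.2 ± 2.40, 75.8 ± 2.82, 68.8 ± 1.05 and 52.1 ± 0.742 CPM with ID1 to ID4 (SD, n = 3 each). Like GREM1, TGFB2 was thus least raised with ID4. TGFB3 rose by 1.14, 1.36, 1.70 and 0.98 on the log2 scale.

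Of the 10 tested receptors, 3, 2, 2 and 2 were higher and 1, 3, 1 and 1 lower, so that 4, 5, 3 and 3 passed in all, beside 22.1%, 35.1%, 28.6% and 21.6% of all tested genes. TGFBR2, the TGF-β type II receptor, fell by 0.73, 0.50, 0.50 and 0.40 on the log2 scale, while the co-receptor TGFBR3 rose by 0.51, 0.46, 0.39 and 0.51. The ID4 call of TGFBR2 (edgeR adjusted p = 0.0175) was lost without GFP replicate 1, GFP replicate 3, ID4 replicate 2 or ID4 replicate 3, with adjusted p-values of 0.0559 to 0.0719, and by DESeq2 (0.052). BMPR1B fell by 0.90 with the ID2 label (adjusted p = 0.0161), a call lost without ID2 replicate 1 (adjusted p = 0.0716). Of the 4 other SMADs, SMAD2 and SMAD4 passed in no comparison (adjusted p = 0.149 to 0.987), whereas SMAD3 fell with ID2 (log2 -0.34, adjusted p = 0.000583) and SMAD9 with ID2 (-0.52, adjusted p = 0.0222) and ID4 (-0.62, adjusted p = 0.0148). Both SMAD9 calls were lost without GFP replicate 2 (adjusted p = 0.113 and 0.081), and also without GFP replicate 3 (0.0565) or ID2 replicate 1 (0.136) and with only the compared groups fitted (0.0603) for ID2, and without ID4 replicate 2 (0.0747) for ID4.

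Of the 9 tested regulators, 2, 2, 2 and 3 were higher for ID1 to ID4, beside 12.4%, 18.5%, 15.1% and 12.1% of all tested genes. In each group 0 were lower, beside 9.73%, 16.7%, 13.5% and 9.51% of all tested genes. PMEPA1, a TGF-β-induced inhibitor of SMAD activation, rose by 0.68, 0.50, 0.53 and 0.37, and TOB1, an anti-proliferative binding partner of SMADs, by 0.62, 0.39, 0.50 and 0.52 on the log2 scale. The ID4 call of PMEPA1 was lost without GFP replicate 1, ID4 replicate 2 or ID4 replicate 3 (edgeR adjusted p up to 0.141), that of TOB1 without ID4 replicate 1 (0.0663), and the ID2 call of TOB1 without any 1 GFP library, ID2 replicate 1 or ID2 replicate 2 (up to 0.197), by limma (0.0507) and with only the compared groups fitted (0.0973). SMURF2, a ubiquitin ligase for SMADs and receptors, was 8.04 ± 0.764 CPM in GFP and 23.5 ± 0.244 CPM with the ID4 label (SD, n = 3 each, log2 fold change 1.54, edgeR adjusted p = 6.72e-09), and its means were 8.82 to 10.1 CPM in the other groups. For ID1, SMURF2 passed only without ID1 replicate 2 (adjusted p = 0.0113). Of the 8 tested targets, among them ID1 to ID4, 2, 5, 4 and 2 were higher, beside 12.4%, 18.5%, 15.1% and 12.1% of all tested genes. Those that were lower numbered 3, 1, 1 and 2, beside 9.73%, 16.7%, 13.5% and 9.51%. These counts hold the transduced genes: ID3 is among the higher ones with its own label, and ID4 with its own label. ID4 is also counted with ID2 and ID3, at 5 to 7 and 3 to 10 counts per library (edgeR adjusted p = 0.0129 and 0.0217). The filter used the mean over all 15 libraries, in which ID4 mRNA had 2479 to 3110 counts with its own label. Its ID2 and ID3 calls lie near the floor of 3 counts and were not read as a change of a target. DLX5, a homeobox gene, had 2 to 4 counts in GFP and 11 to 27 in the ID groups, and passed in all 4 (edgeR adjusted p = 2.68e-05 to 0.000249). Its GFP counts lie near the floor of 3 counts, and the mean used by the filter includes the ID groups, where it was higher. The size of the DLX5 change was therefore not read. ATOH8 rose by 0.38 with ID2 and by 0.62 with ID3 (adjusted p = 0.0026 and 2.39e-05), and HEY1 by 0.78 with ID2 (adjusted p = 0.000223).

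**Figure D5:**
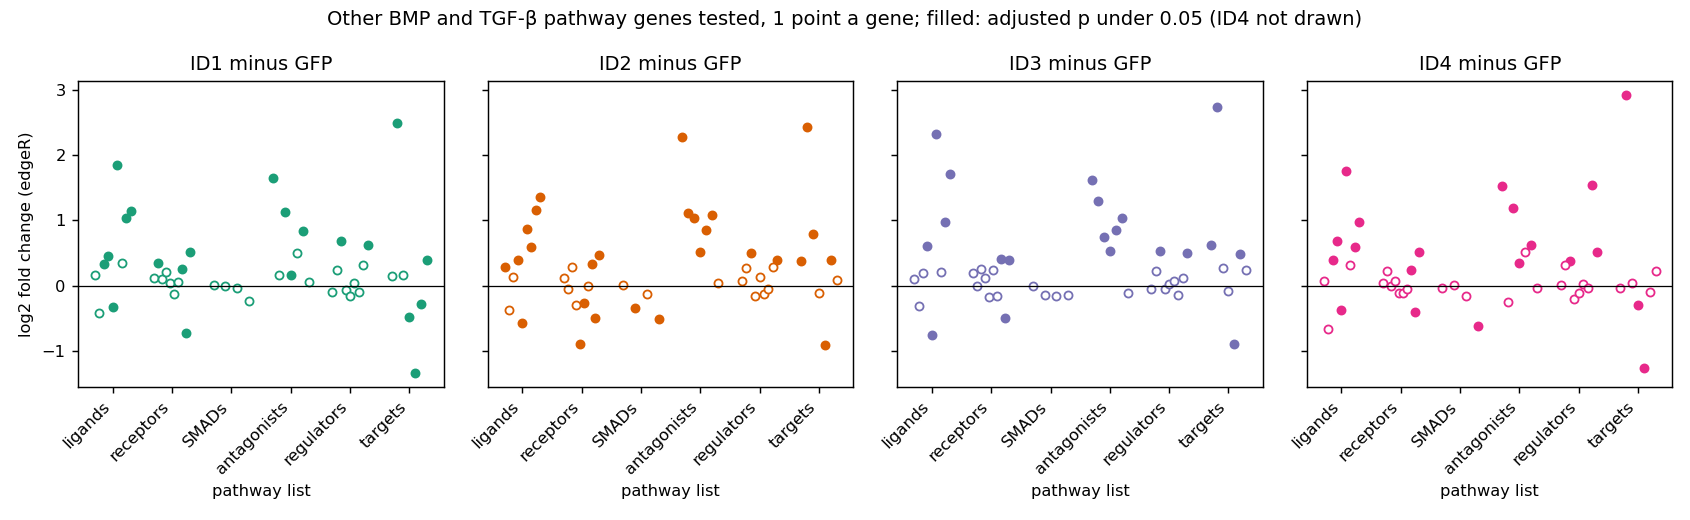
Log2 fold change against GFP (y axis, edgeR) of the tested pathway genes by list (x axis), 1 panel for each ID group and 1 point for each gene, filled where the adjusted p is under 0.05. Every filled antagonist lies above 0, the 4 other SMADs lie between -0.62 and 0.01, and the ID4 gene is not drawn.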

How the data were processed

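The authors deposited 1 table for the 15 libraries, processed by the company eBiogen against hg19 (GRCh37), with Bowtie2 and BWA named in the submitters' processing notes. The counting tool and annotation are not given in the sources used here. For each gene symbol it held raw counts, deposited without normalization, and log2 values that the authors normalized between libraries. Counts were normalized by TMM (factors 0.978 to 1.03) and fitted in edgeR 4.0.16 (R 4.3.3) with 1 mean per group and quasi-likelihood tests. Tested genes were the upper 50% by mean deposited log2 value (3.22 or more). The Benjamini-Hochberg adjustment ran over all tested genes, and the threshold was an adjusted p of 0.05. The test was tried on simulated data with known changes. DESeq2 1.42.0, limma 3.58.1, other filters and normalizations, a replicate block and leaving out each library were alternatives. Positions came from GENCODE lifted to GRCh37, which placed 11746 of the 12870 tested genes. Named pathway genes were at most 3 per list, those with the largest mean absolute change among those passing in at least 1 comparison. The result of 1 gene that the rule names is not reported here. The members and lists were chosen with earlier results of these data known.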

Additional observations from a re-analysis of the deposited data

How the results depend on the processing

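The direction and call of SMAD6 and GREM1 against GFP held in every alternative run for ID1 to ID4. The count of the 9 genes called for ID3 ranged from 2 to 5 over leaving out single libraries, beside 4 with all, and the counts for ID1, ID2 and ID4 ranged from 2 to 3, 4 to 5 and 2 to 3. Same-numbered libraries of GFP and the ID groups did not deviate together (correlation of deviations -0.15 to 0.11 in 12 pairs, 1 over 0.1), so the numbers were not taken as pairs. Between ID groups the correlations ranged more widely, from -0.24 (ID2 and ID3, replicate 3) to 0.23 (ID2 and ID4, replicate 3). With the replicate number as a replicate block, 2713, 4363, 3517 and 2585 genes were called for ID1 to ID4 instead of 2849, 4519, 3685 and 2775, SMAD1 lost its ID3 call (adjusted p = 0.0508) and BAMBI differed between ID2 and ID3 (adjusted p = 0.0423).

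The values whose direction turned had not passed the test, and the cause was not tested. SMAD5 for ID3 was -0.00081 with filterByExpr, -0.00052 with RLE size factors and -0.00044 by DESeq2. BMPR1B for ID1 was -0.0027 by limma. With library totals alone, SMAD3 for ID1 was 0.0079 and SMAD6 between ID2 and ID4 was -0.0014. Over leaving out single libraries, log2 values against GFP ranged for ID1 over -0.26 to 0.30 (BMP2), -0.045 to 0.11 (SMAD1), -0.064 to 0.023 (SMAD5), -0.23 to 0.23 (SMAD7), -0.25 to 0.19 (BMPR1B), -0.048 to 0.021 (SMAD3). For ID2 the range was -0.019 to 0.44 (SMAD7), and for ID3 -0.033 to 0.026 (SMAD5), -0.54 to 0.061 (BMPR1B). For ID4 the ranges were -0.55 to 0.010 (BMP2), -0.023 to 0.015 (SMAD5), -0.25 to 0.21 (SMAD7), -0.26 to 0.041 (BMPR1B), -0.034 to 0.037 (SMAD3), -0.0065 to 0.070 (HEY1), -0.11 to 0.043 (ATOH8). Between ID groups they were -0.097 to 0.031 (BMPR2, ID1 against ID3), -0.032 to 0.10 (BMPR2, ID1 against ID4), -0.039 to 0.059 (SMAD6, ID2 against ID4), -0.20 to 0.089 (BAMBI, ID1 against ID3), -0.16 to 0.35 (BAMBI, ID1 against ID4), -0.14 to 0.37 (BAMBI, ID3 against ID4), -0.074 to 0.057 (ID1 mRNA, ID2 against ID3). BAMBI, SMAD7, BMPR1A and BMP2 had 8 to 89 counts per library, and BMP4 was under the floor. At similar counts, standard errors against GFP were 0.16 for BMPR1A and 0.29 to 0.30 for BMP2, whose GFP libraries had 80, 35 and 86 counts.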
